A study of Mus musculus with 2 samples.

Results

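The mitosis genes described here are 35 listed genes whose products drive, police or carry out cell division. They were listed by name as mitotic regulators, not picked by their level in these cells, although earlier results of these data were known. All 35 were present among the 31054 features of the P2 matrix and the 31053 features of the E18 matrix. The list was meant to leave kinesins aside, although Cenpe, a kinetochore motor of the kinesin family, is on it. By role it holds 6 cyclins, Cdk1 and its regulators, 3 genes of anaphase promotion, 7 mitotic and checkpoint kinases, 9 centromere and kinetochore genes, 5 genes of spindle microtubules, 3 of cytokinesis and 2 of chromosome structure. A second split by timing, from general knowledge of the cell cycle, puts 16 genes in late G2 and M and 19 in S phase and G2 onward.

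Cells were profiled by droplet single-cell RNA sequencing, in which each transcript is counted once through a molecular tag (UMI). The P2 library came from the dorsal and lateral ventricular-subventricular zone (V-SVZ), the germinal layer along the lateral ventricle, of mice of postnatal day 2 (P2) with the genotype Emx1Cre;R26Eyfpfl/fl, in which Cre driven by Emx1 switches on EYFP in the dorsal, cortical lineage. The E18 library came from the cortex with the dorsal V-SVZ of CD1 mice at embryonic day 18 (E18). How many animals went into each is not stated in the labels. In both, live nucleated cells had been sorted with propidium iodide and DRAQ5 before capture. DRAQ5 stains DNA, and whether the gate took cells of some cell cycle phases more than others was not tested. There is 1 library per age, so no test between ages was possible, and age, dissection, mouse line and library preparation cannot be told apart. Barcodes that begin AAACCC occurred at P2 alone (4 of them) and barcodes that begin AAACCT at E18 alone (6), and the part of library chemistry in the results was not tested. All intervals given here are 95% intervals for counting error only, and they take no account of differences between mice or of UMIs that come from the same cell.

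In a dividing cell, Cdk1 bound to cyclin A or cyclin B phosphorylates the proteins that condense chromosomes and build the spindle. The spindle checkpoint holds the anaphase-promoting complex back until every kinetochore is attached, and the complex then marks securin and cyclin B for destruction so that sister chromatids part and the cell cleaves. Most of these genes are transcribed from S phase to mitosis and are silent in quiescent cells and neurons, through the DREAM and MuvB-FOXM1 complexes that act at paired promoter elements, CCAAT boxes bound by NF-Y and the CHR (cell cycle homology region). In the late embryonic and early postnatal mouse forebrain the dividing cells are radial precursors along the ventricle, the intermediate progenitors they give rise to, and young olfactory neuroblasts that go on dividing as they mature.

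Promoters are shown for the gene with the most UMIs in each of 6 of the 7 role groups, all but the kinases (led by Pbk), since these elements lie there. RefSeq promoter windows (GRCm38.p6, 250 bases before to 50 after each start) were matched for 29 of the 35 genes, and 180 bases, from 150 before to 30 after the start, are printed 5′ to 3′ on the gene's strand. Capitals mark CCAAT and the CHR forms TTTGAA and TTCGAA on either strand.
Cks2 (chr13:51645082-51645261, plus strand), an adaptor of Cdk1: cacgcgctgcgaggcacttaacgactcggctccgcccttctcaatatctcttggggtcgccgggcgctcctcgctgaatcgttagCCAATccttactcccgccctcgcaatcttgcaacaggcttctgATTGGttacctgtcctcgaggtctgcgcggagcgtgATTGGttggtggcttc
Ube2c (chr2:164769779-164769958, plus strand), the ubiquitin-conjugating enzyme of the anaphase-promoting complex: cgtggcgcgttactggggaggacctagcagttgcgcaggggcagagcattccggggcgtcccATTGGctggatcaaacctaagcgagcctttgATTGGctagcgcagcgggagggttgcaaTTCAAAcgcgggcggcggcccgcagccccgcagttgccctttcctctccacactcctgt
Cenpf (chr1:189688057-189688236, minus strand), a large kinetochore protein: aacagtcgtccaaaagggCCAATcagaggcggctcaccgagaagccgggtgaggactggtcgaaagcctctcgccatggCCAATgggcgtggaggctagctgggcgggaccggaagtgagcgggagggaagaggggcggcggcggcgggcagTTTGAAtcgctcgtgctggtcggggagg
Prc1 (chr7:80294301-80294480, plus strand), which bundles the central spindle: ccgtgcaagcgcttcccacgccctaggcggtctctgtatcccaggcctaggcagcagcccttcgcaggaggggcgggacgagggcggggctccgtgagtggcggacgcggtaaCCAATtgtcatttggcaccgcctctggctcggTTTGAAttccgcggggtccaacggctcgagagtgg
Racgap1 (chr15:99651627-99651806, minus strand), part of the centralspindlin complex of cytokinesis: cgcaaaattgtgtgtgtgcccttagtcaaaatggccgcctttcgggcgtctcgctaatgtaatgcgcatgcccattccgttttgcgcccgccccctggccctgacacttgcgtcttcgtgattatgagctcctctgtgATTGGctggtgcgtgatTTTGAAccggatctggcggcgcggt
Top2a (chr11:99024160-99024339, minus strand), the topoisomerase that untangles sister chromatids: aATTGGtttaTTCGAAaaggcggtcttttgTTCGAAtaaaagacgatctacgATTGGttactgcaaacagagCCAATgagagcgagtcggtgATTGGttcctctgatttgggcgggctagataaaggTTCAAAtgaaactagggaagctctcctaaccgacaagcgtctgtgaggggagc

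Across the whole 300-base windows, 22 of the 29 members (75.9%) held a CCAAT, against 41.1% of 27025 genes in the same table, and 17 of them (58.6%) held 2 or more, against 13.3% of genes. A CHR form was found in 21 of the 29 (72.4%), against 21.7% of genes, and both elements in 19 (65.5%), against 8.61% of genes. A CHR word can share a base with CCAAT, and such a case counts for both. Of the printed promoters, Top2a held 4 CCAAT and 3 CHR matches, and Cks2 held 3 CCAAT and no CHR match. A match is a description of the letters and not of binding.

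The P2 matrix held 2778 barcodes and 42572208 UMIs and the E18 matrix 2922 barcodes and 19986915 UMIs, with no barcode shared. After filtering, 2298 P2 cells with a median of 12525 UMIs and 2475 E18 cells with a median of 6566 UMIs were kept. They were grouped into 17 and 18 clusters, which were then named from marker genes. The members, other listed cell cycle genes and genes of cell cycle families matched by name were left out of the clustering. So were 69 genes, not markers, whose correlation with the summed members was 0.4 or more in either library. The choice of clustering genes thus drew in part on the members' own values. None of the genes left out could count as a leading gene of a cluster. Leaving them out did not remove cell cycle state, since genes of replication still led 1 of the P2 clusters. Every such name means "like" that cell type. Shares of cells were taken after each cell was thinned to 3000 UMIs, because a deep cell shows more genes. A cell is called mitotic here when it showed 5 or more of the 35 members at that depth. Removal of the cells with the highest doublet scores fell unevenly on the members at P2, where 72.9% of removed cells and 33.8% of kept cells showed 5 or more members without thinning, against 10.9% and 4.53% at E18. The removed P2 cells were also deep, with a median of 33540 UMIs. The part of doublets in the results was not tested beyond the values given with and without this removal.

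Members were detected together in a small set of cells. At P2, 391 of 2182 thinned cells (17.9%) showed 5 or more members, 861 showed none and 564 showed 1. At E18, 89 of 2363 cells (3.77%) showed 5 or more, 1830 showed none and 390 showed 1. Mitotic cells showed a median of 14 members at P2 and 16 at E18, and the cell with the most showed 27 at P2 and 28 at E18. Few cells lay at the threshold: 29 P2 cells showed exactly 5 members and 33 showed 4, against 2 and 3 cells at E18. Mitotic cells held most of the signal, 95.9% of member UMIs in the inhibitory intermediate progenitors at P2 and 95.6% in the astroglial class at E18.

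At P2 the members were highest in the class named inhibitory intermediate progenitors, after Gsx2 and Egfr expressing cells that make olfactory and striatal neurons. Of the class's 384 cells, 211 lay in a cluster with no marker of the class among its 10 leading genes. The summed level of the class was 72.6 UMIs per 10000 (72.1 to 73.2), and 218 of 347 thinned cells (62.8%, 57.5 to 67.9%) were mitotic. The inhibitory neuroblasts had a level of 27.9 (27.6 to 28.2) with 121 of 915 cells mitotic (13.2%). The astroglial class was 1 cluster in each library, named for radial precursors or neural stem cells, with astrocyte markers scoring next. At P2 it had a level of 13.3 (12.8 to 13.8) with 10 of 115 cells mitotic (8.70%). Excitatory neurons, which do not divide, were taken as the background: they had a level of 2.96 and 1 mitotic cell of 195 at P2, and 0.827 and 3 of 1766 at E18. That 1 cell held 37.0% of the class's member UMIs at P2, and the 3 cells held 25.4% at E18. The neuroblast values depended on the cells kept: with a 5% limit on mitochondrial UMIs the level was 49.9 and the mitotic share 27.7%. The P2 oligodendrocyte precursors, at 6.71, stood above the neuron background in level, with 63.8% of their member UMIs in 3 mitotic cells. Their mitotic share, 3 of 81 cells (3.70%, 0.770 to 10.4%), overlapped that of the neurons (0.513%, 0.0130 to 2.82%). The P2 striatal projection neurons, at 1.72 with 0 of 190 cells mitotic, did not stand above the background. A count of 0 of 190 allows a share of up to 1.58%, taken as 3 cells of the total.

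Smaller P2 classes also held cells with 5 or more members. The 20 excitatory intermediate progenitors had a level of 55.7 and 9 of 19 thinned cells were mitotic. Microglia had a level of 21.6 with 8 of 37 cells mitotic, and 6 of 9 cells of the ependymal class, whose median depth was 50676 UMIs, passed the same rule. Over all 9 ependymal cells the level of 30 S phase genes was 6.25 per 10000 UMIs, against 6.69 in P2 excitatory neurons. Of the 9 thinned ependymal cells, 3 showed 8 or more other mitotic genes that are not members, against 1 of 195 excitatory neurons. Without thinning the shares were far higher for deep classes, for example 41.9% in the P2 astroglial class against 25.6% in that of E18, whereas thinned cells gave 8.70% and 24.1%, so the order of the ages in this share differed with depth.

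**Figure D1:**
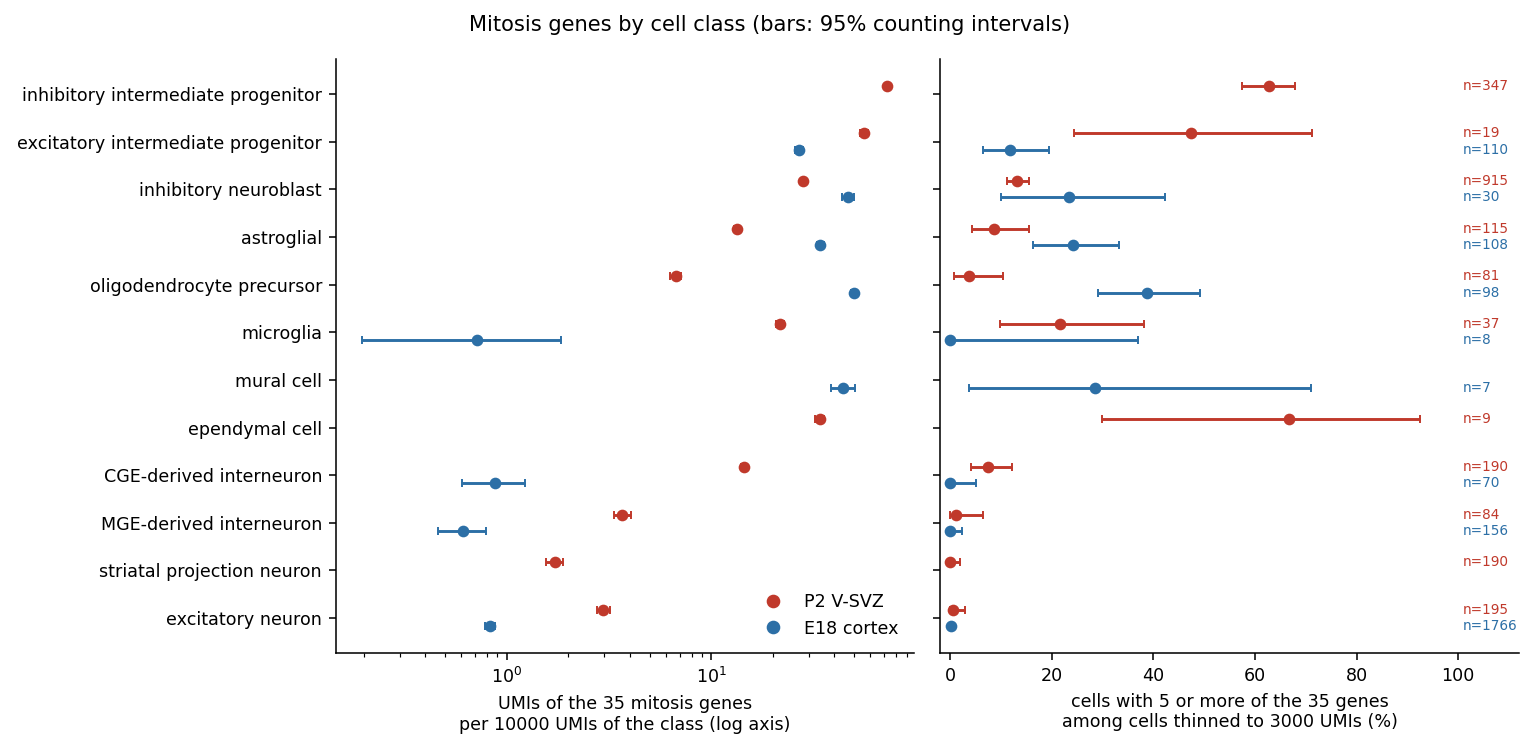
UMIs of the 35 mitosis genes per 10000 UMIs of each class (left, log axis) and the percentage of thinned cells with 5 or more of them (right), for P2 (red) and E18 (blue), with 95% counting intervals and the number of thinned cells. The P2 inhibitory intermediate progenitors reach 72.6 and 62.8%, while excitatory neurons of both libraries lie at 2.96 or less and under 1%.

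At E18 the astroglial class had a level of 34.1 (32.8 to 35.4) with 26 of 108 cells mitotic (24.1%, 16.4 to 33.3%). Excitatory intermediate progenitors, the Eomes and Neurog2 expressing cells that make cortical neurons, had 26.7 (25.6 to 28.0) with 13 of 110 cells mitotic (11.8%). With cell cycle genes left in the clustering, this class had a level of 1.22 and no mitotic cell. The class named for oligodendrocyte precursors had a level of 49.6 with 38 of 98 cells mitotic (38.8%), but it was mixed. Its 63 cells without a UMI of Pdgfra, the growth factor receptor that marks these precursors, had a level of 62.5 and its 35 cells with one had 20.8, among cells of 3000 or more UMIs, and at a finer clustering 70 of its 103 cells took the name of inhibitory intermediate progenitors and 33 kept their name. The 41 inhibitory neuroblasts of E18 had a level of 46.6, with 7 of 30 cells mitotic.

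Within the P2 progenitors the members marked out particular clusters. Of the inhibitory intermediate progenitors, a cluster of 211 cells led by Lgals1, Fam111a and Tcf19 had a level of 83.5 with 140 of 193 cells mitotic, and a cluster of 173 cells with Egfr and Olig1 among its leading genes had 59.0 with 78 of 154 mitotic. None of the 10 leading genes of the first cluster was a marker of its class, and without it the class level was 59.0. The second cluster also had Olig2 among its 10 leading genes. Olig1 and Olig2 are listed markers of oligodendrocyte precursors, for which it scored 0.23, against 0.82 for its own class. Among the neuroblasts, 1 cluster of 253 cells, led by Mcub, Dcbld1 and St18, had a level of 64.2 with 103 of 252 cells mitotic. The other neuroblast clusters had levels from 2.52 to 16.2. Mitotic neuroblasts thus sat largely in 1 cluster of the class. By EYFP, the mark of the dorsal lineage, the level was 8.96 in astroglial cells with EYFP and 18.0 in those without it. It was 33.0 and 24.9 in neuroblasts, and 71.9 and 73.3 in inhibitory intermediate progenitors. The astroglial values rest on 3 mitotic cells of 59 with EYFP (5.08%, 1.06 to 14.1%) and 7 of 56 without it (12.5%, 5.18 to 24.1%), shares whose intervals overlap. Neuroblasts with EYFP were deeper, with a median of 12541 UMIs against 9657 without it.

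Gene by gene, nearly all members were highest in the same one of the larger P2 classes. In the inhibitory intermediate progenitors all 35 members were 2-fold or more higher than in the P2 excitatory neurons, where 18.3% of all genes with 10 or more UMIs over both classes were, and the members' median log2 ratio was 4.64, against -0.05 for all genes. Some members had under 10 UMIs in neurons and reached that minimum through the progenitors, such as Cdc25c and Anln, at 1.56 CPM in neurons. Of the 8 P2 classes with 50 or more cells, these progenitors had the highest level of 34 members, each above the next class beyond its counting interval. The exception was Pttg1. This progenitor class includes the cluster led by genes of replication, which held 42568 of its 66589 member UMIs. Without that cluster the summed level was 59.0, against 27.9 in neuroblasts, and the ranking of single members was not repeated.

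Among the cyclins and Cdk1 regulators, Cks2 had 372.0 CPM in P2 inhibitory intermediate progenitors, 160.0 in neuroblasts and 73.8 in astroglial cells, against 25.0 in excitatory neurons. Of the anaphase genes, Ube2c had 568.9, 295.8 and 62.5 CPM in the same 3 classes, against 19.9 in excitatory neurons. Both genes kept this order well outside their counting intervals. Pbk, a mitotic kinase, had 383.4, 101.7 and 77.0 CPM, against 7.04 in excitatory neurons. Cenpf had 440.8, 194.8 and 61.2 CPM, against 24.2. For the spindle gene Prc1 the values were 256.9, 99.7 and 52.7 CPM, against 7.43. All of these were highest in the progenitors and lowest, of the 3 classes, in astroglia. Racgap1 had 244.1, 99.5 and 45.0 CPM, against 30.5 in neurons, a smaller step above neurons than for the other leading genes. Top2a had 802.6, 263.9 and 153.3 CPM, against 27.8.

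The astroglial class at P2 stood closer to its background. There 32 of 35 members were 2-fold or more higher than in excitatory neurons, beside 24.8% of all genes, and the 3 that were not were Aurka (log2 ratio -0.25, -1.05 to 0.55), Bub1b (0.39, -0.66 to 1.47) and Racgap1 (0.56, 0.13 to 1.00). Aurka and Bub1b encode a spindle pole kinase and a checkpoint kinase. In the P2 neuroblasts 34 of 35 members were higher by that measure, beside 12.3% of genes. In the P2 oligodendrocyte precursors 25 of 35 were, beside 18.7%, with Bub1 below 10 UMIs. In the P2 CGE interneurons 34 of 35 were, beside 9.06%, all but Racgap1 (log2 ratio 0.97). In these classes too, members with under 10 UMIs in neurons reached the minimum only with the UMIs of the class compared.

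At E18 the ratios over neurons were larger. In the astroglial class 34 members were 2-fold or more higher than in excitatory neurons, beside 21.7% of genes, with a median log2 ratio of 5.69 over those 34; the remaining member, Anln, an actin and septin scaffold of the cleavage furrow, had 3 UMIs in the class and 5 in neurons. All 35 were higher by that measure in the excitatory intermediate progenitors, beside 15.4% of genes. Several members had under 10 UMIs in E18 neurons, such as Bub1 (2), Aspm (4) and Plk1 (5), and reached the minimum through the progenitors. The neuron class had 14017779 UMIs and the astroglial class 774393, so for such members the 2-fold mark was all but set in advance. Cks2 had 322.8 CPM in the astroglial class, 239.2 in excitatory intermediate progenitors and 9.49 in excitatory neurons. For Ube2c these levels were 307.3, 255.8 and 4.92 CPM. Cenpf had 187.2, 120.3 and 4.28 CPM, and Top2a had 182.1, 178.4 and 2.21 CPM. For these genes the 2 progenitor classes lay within 2-fold of each other and far above neurons. Some other members differed more between the astroglial class and the intermediate progenitors, such as Pttg1 (193.7 and 80.2 CPM) and Knstrn (108.5 and 48.4 CPM). Of the 6 E18 classes with 50 or more cells, the highest for 32 members was the mixed oligodendrocyte precursor class, but only 11 of them were beyond the counting interval of the next class. The 41 E18 neuroblasts, outside that ranking, had more Ube2c, with 653.7 CPM against 434.1 in the mixed class.

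**Figure D2:**
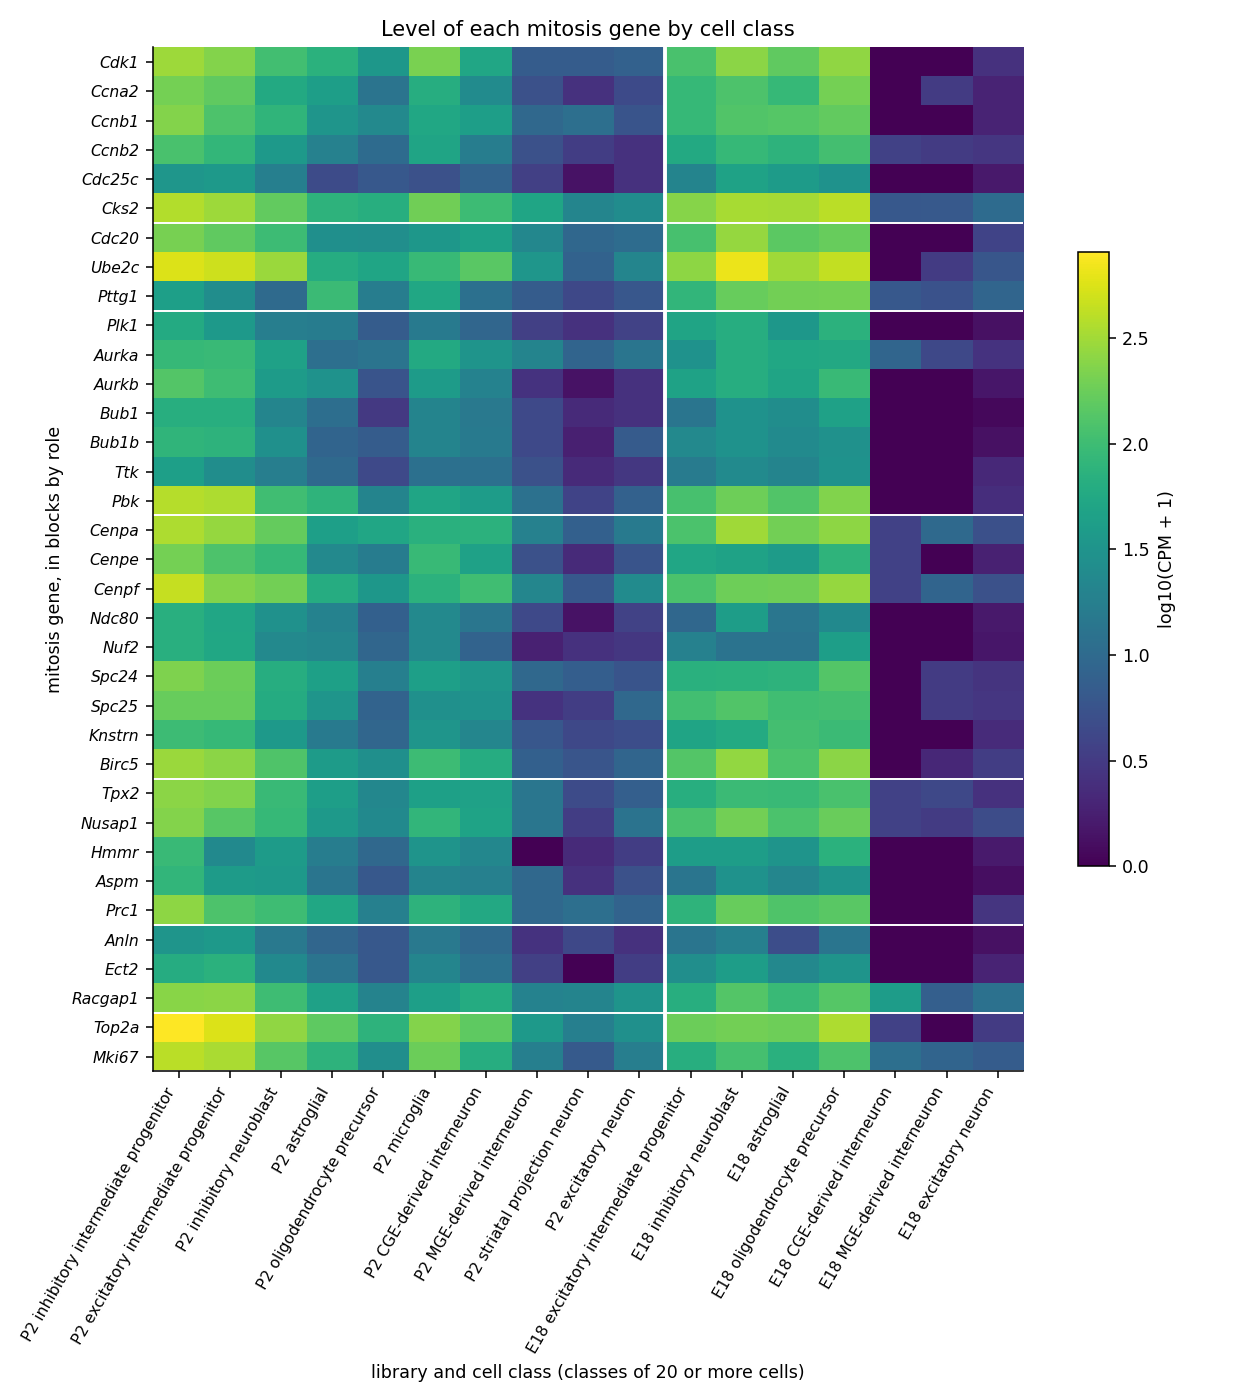
Level of each mitosis gene, as log10(CPM + 1), in each class of 20 or more cells, P2 on the left of the thick line and E18 on the right, with genes in blocks by role. The inhibitory intermediate progenitors of P2 are brightest for most genes, while Ube2c and Cdc20 are among those brighter in an E18 class, and Pttg1 is brighter in the P2 astroglial class (94.9 CPM) than in those progenitors (43.0 CPM).

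Late and early members followed the S phase genes differently. Of the members' UMIs, the 16 late G2 and M genes gave 44.2% (43.9 to 44.6%) in P2 inhibitory intermediate progenitors, 50.2% in neuroblasts and 41.2% in the astroglial class. The E18 astroglial class gave 58.1% and the E18 excitatory intermediate progenitors 51.9%. Cells were then sorted by their UMIs of 30 S phase genes, replication factors that are not members. In P2 cells with 20 or more S phase UMIs late members gave 26.0% of member UMIs and 74.7% of the 150 cells were mitotic by the 5-member rule. In P2 cells with 5 to 9 S phase UMIs, late members gave 52.6%. The E18 values were 28.6% and 60.7% in the same bins. Many cells rich in S phase genes count as mitotic by this rule, so the word covers S phase, G2 and M here.

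**Figure D3:**
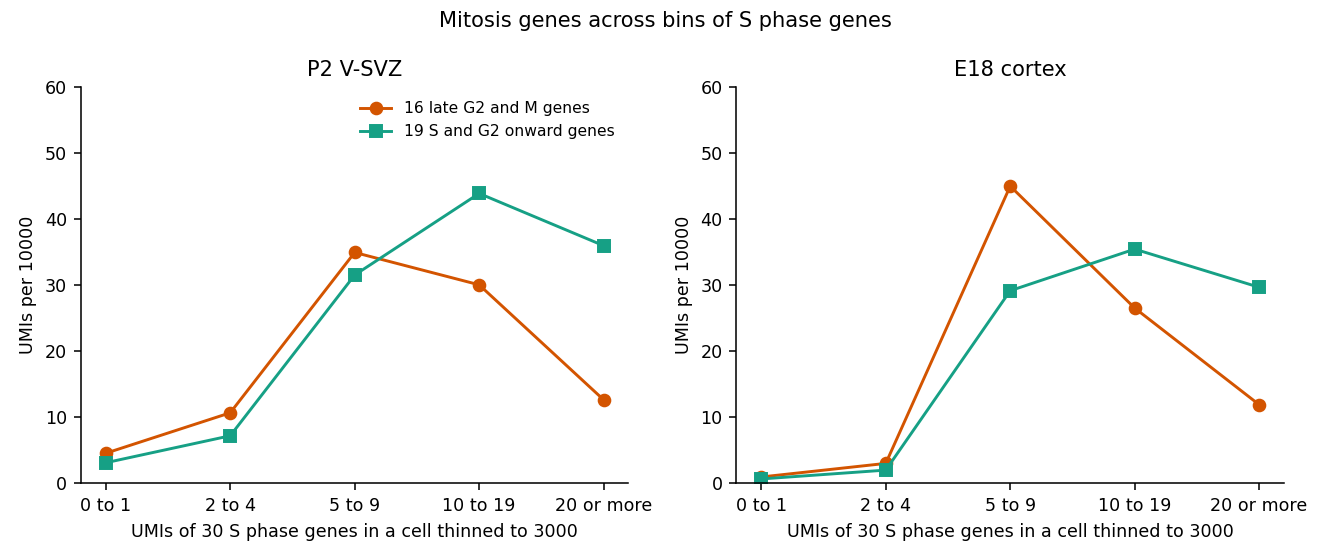
Level per 10000 UMIs of the 16 late members (orange) and 19 early members (green) in cells binned by UMIs of 30 S phase genes, for P2 (left) and E18 (right). The late level peaks at 5 to 9 S phase UMIs in both libraries (34.97 at P2 and 45.02 at E18) and the early level at 10 to 19 (43.9 at P2 and 35.5 at E18).

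The ages were compared first in the astroglial class, found in both libraries. The summed level was 13.3 at P2 and 34.1 at E18, a log2 ratio of -1.36 (-1.43 to -1.28), while the median over all genes was 0.30. Of the 35 members, 23 were 2-fold or more lower at P2, beside 5.72% of all genes, and 1 (Anln) was 2-fold or more higher, beside 25.1%. By timing, 13 of 16 late members were 2-fold lower, with a median log2 ratio of -2.06, against 10 of 19 early members with a median of -1.05. Of the 30 S phase genes, 2 were 2-fold lower, with a median of -0.18, and of 57 other mitotic genes, 25 were, with a median of -0.88.

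Cdc25c, the phosphatase that switches Cdk1 on, had 3.65 CPM at P2 and 38.7 at E18, a log2 ratio of -3.41 (-4.67 to -2.30). Knstrn, a spindle and kinetochore adaptor, had 14.6 and 108.5 CPM, a ratio of -2.89. Cdc20, the activator of the anaphase-promoting complex, had 27.2 and 149.8 CPM, a ratio of -2.46. These 3 were the lowest, and Aurka (-2.33), Ube2c (-2.30), Cenpa (-2.20), the centromeric histone, Cks2 (-2.13), and the B cyclins Ccnb1 (-2.08) and Ccnb2 (-2.04) also had intervals wholly below that of the summed level. At the other end were Anln (1.07, -0.69 to 3.46) and the kinetochore genes Nuf2 (0.83, -0.20 to 2.04) and Ndc80 (0.53, -0.48 to 1.68), all 3 with intervals that span 0. Mki67, the Ki-67 antigen, had 75.0 CPM at P2 and 68.4 at E18, a ratio of 0.13 (-0.32 to 0.60), and Top2a had 153.3 and 182.1 CPM, a ratio of -0.25 (-0.53 to 0.04). Pbk (-0.76) and Spc24 (-0.74), a subunit of the Ndc80 complex, were lower at P2 but by less than the sum; both turned direction with a 5% limit on mitochondrial UMIs (0.31 and 0.46) and with cell cycle genes in the clustering (1.81 and 2.21). The remaining leading genes were Cenpf (-1.61), Prc1 (-1.26) and Racgap1 (-1.05). With cell cycle genes in the clustering these also turned direction, as did Ccnb1, Cks2, Cdc20, Ube2c and Aurka.

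These values rest on few cells and on how the class was drawn. Its 10 mitotic cells at P2 held 76.2% of the class's member UMIs, and its 26 at E18 held 95.6%. The mitotic share, 8.70% (4.25 to 15.4%) at P2 and 24.1% (16.4 to 33.3%) at E18, has intervals that fall just short of overlap. Its order did not hold throughout: the share was 29.4% at P2 and 24.3% at E18 with a 5% limit on mitochondrial UMIs, 10.2% and 7.06% with cell cycle genes in the clustering, and 41.9% and 25.6% without thinning. When the class was instead made of cells with 4 or more of 12 radial precursor markers and no UMI of Dlx1, Dlx2, Dlx5, Eomes, Pdgfra or Olig1, the level was 26.0 at P2 over 88 cells and 41.9 at E18 over 113 cells, a ratio of -0.69, the mitotic share was 19.3% and 28.3%, and 9 members were 2-fold lower; with 6 or more markers it was 10.7 and 41.6, a ratio of -1.96. With a 5% limit on mitochondrial UMIs, which left 36 astroglial cells at P2, the ratio was -0.38 and 10 members were 2-fold lower. The same class held to that limit without new clusters gave -1.20. With cell cycle genes left in the clustering, 20 of the 26 mitotic astroglial cells of E18 moved to another class, and the ratio was 1.58.

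In the oligodendrocyte precursor class the summed level was 6.71 at P2 and 49.6 at E18, a log2 ratio of -2.89, and all 35 members were 2-fold or more lower, beside 10.2% of genes. The E18 class was the mixed one, with a marker score of 0.90 for oligodendrocyte precursors and 0.77 for inhibitory intermediate progenitors. At P2 the class scored 1.00 and 0.36, so the ratio may not compare like cells. The direction did not hold at the finer clustering, where the ratio was 0.72, or with cell cycle genes in the clustering, where it was 0.21. Among cells with a Pdgfra UMI the level was 4.95 at P2 and 20.4 at E18, a ratio of -2.05 (-2.22 to -1.87). Of the 27 members with 10 or more UMIs there, 26 were 2-fold lower, beside 5.7% of genes. Ratios of single members are not given for this class.

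Interneurons named for the caudal ganglionic eminence (CGE), an embryonic source of cortical interneurons, went the other way. Their summed level was 14.4 (13.9 to 14.8) at P2 and 0.875 (0.602 to 1.23) at E18, a log2 ratio of 4.04 (3.55 to 4.58), or 1.82 with cell cycle genes left in the clustering, while 24.4% of all genes were 2-fold or more higher. Most members had 0 to 2 UMIs in the E18 class and reached the minimum of 10 UMIs through P2 alone, so no count of members is given. At P2, 14 of 190 cells were mitotic and held 83.7% of the class's member UMIs; at E18 none of 70 was, which by the same limit allows a share of up to 4.29%. The P2 cluster was led by Nr2f2, Chodl and Pdzrn3 and the E18 cluster by Adarb2, Pnoc and Cxcl14. By mean marker score the P2 cluster came closer to inhibitory neuroblasts (0.70) than to CGE interneurons (0.63). It took the CGE name from its leading genes. The E18 cluster scored 1.00 for CGE interneurons and 0.59 for neuroblasts, so the ratio may not compare like cells. Racgap1, with 15 UMIs in the E18 class, had 59.8 CPM at P2 and 39.8 at E18. Interneurons named for the medial ganglionic eminence had 3.67 at P2, near the 2.96 of P2 excitatory neurons, and 0.610 at E18, near the 0.827 of E18 excitatory neurons, so both lay near the background of their own library, and the log2 ratio was 2.59, ranging over the alternatives tried between 1.98 with cell cycle genes in the clustering and 4.03 with the 5% mitochondrial limit.

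To compare dividing cells with dividing cells, cells were chosen by 8 or more of 57 other mitotic genes at 3000 UMIs, which uses no member; the number was raised from 3 after it was seen that 3 also took 35.4% of P2 excitatory neurons. This gave 350 P2 cells, 59.7% of them inhibitory intermediate progenitors and 28.3% neuroblasts, and 83 E18 cells, 44.6% of them from the mixed oligodendrocyte precursor class and 25.3% astroglial. Of these cells 330 at P2 and 76 at E18 also showed 5 or more members. The summed level of the members was 103.1 at P2 and 117.1 at E18, a log2 ratio of -0.18 (-0.22 to -0.15). The S phase genes were at 0.33. The other mitotic genes were at 0.00 (-0.04 to 0.04), but they chose the cells in both libraries, so that value is no independent reference. Only 2 members were 2-fold lower at P2, beside 8.58% of genes, and 2 were 2-fold higher, beside 23.7%. Every other member was within 2-fold, while the cell classes that made up the cells differed between the ages.

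Pttg1 stood far outside that range. It encodes securin, the inhibitor of separase that keeps sister chromatids joined until anaphase. In these cells it had 42.7 CPM at P2 and 459 at E18, 10.8-fold lower at P2, with a log2 ratio of -3.43 (-3.63 to -3.22). The gene had the same identifier in both matrices, and whether its reads are counted alike in the 2 mouse lines was not tested. It was seen in 45 of the 350 P2 cells (12.9%, 9.53 to 16.8%) and in 48 of the 83 E18 cells (57.8%, 46.5 to 68.6%). The next lowest was Plk1, Polo-like kinase 1, with 79.1 and 171.8 CPM (-1.12), followed by Cks2 with 512.6 and 1008 CPM (-0.98). The 3 highest were Mki67, with 565.4 CPM at P2 and 276.4 at E18 (1.03), Ndc80, with 103.6 and 51.0 CPM (1.02), and Aspm, a spindle pole protein needed for planar divisions of neural precursors, with 121.3 and 68.5 CPM (0.83). Ube2c, in the same anaphase pathway as Pttg1, had 898.8 and 1161 CPM (-0.37).

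The gap in Pttg1 was there in mitotic cells of each of 4 classes. Mitotic neuroblasts had 18.0 CPM of Pttg1 at P2 over 121 cells and 525.4 at E18 over 7 cells. Mitotic astroglial cells had 100.4 CPM at P2 over 10 cells and 641.3 at E18 over 26 cells. Excitatory intermediate progenitors that were mitotic had 32.3 CPM at P2 over 9 cells and 388.9 at E18 over 13 cells. Mitotic cells named as oligodendrocyte precursors had 22.5 CPM at P2 over 3 cells and 392.6 at E18 over 38 cells of the mixed class. For comparison, Ccnb1 in mitotic neuroblasts had 321.9 CPM at P2 and 398.6 at E18. In the P2 astroglial class Pttg1 was also present outside mitotic cells: the 105 astroglial cells that were not mitotic had 92.1 CPM (79.5 to 106.2) and 25 of them showed it, against 16.7 CPM in the 82 such cells of E18, of which 3 did. In those same non-mitotic astroglial cells Ccnb1 had 1.94 CPM at P2 and 5.56 at E18. Over the whole class Pttg1 had 94.9 CPM in P2 astroglial cells, above the 43.0 CPM of inhibitory intermediate progenitors.

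**Figure D4:**
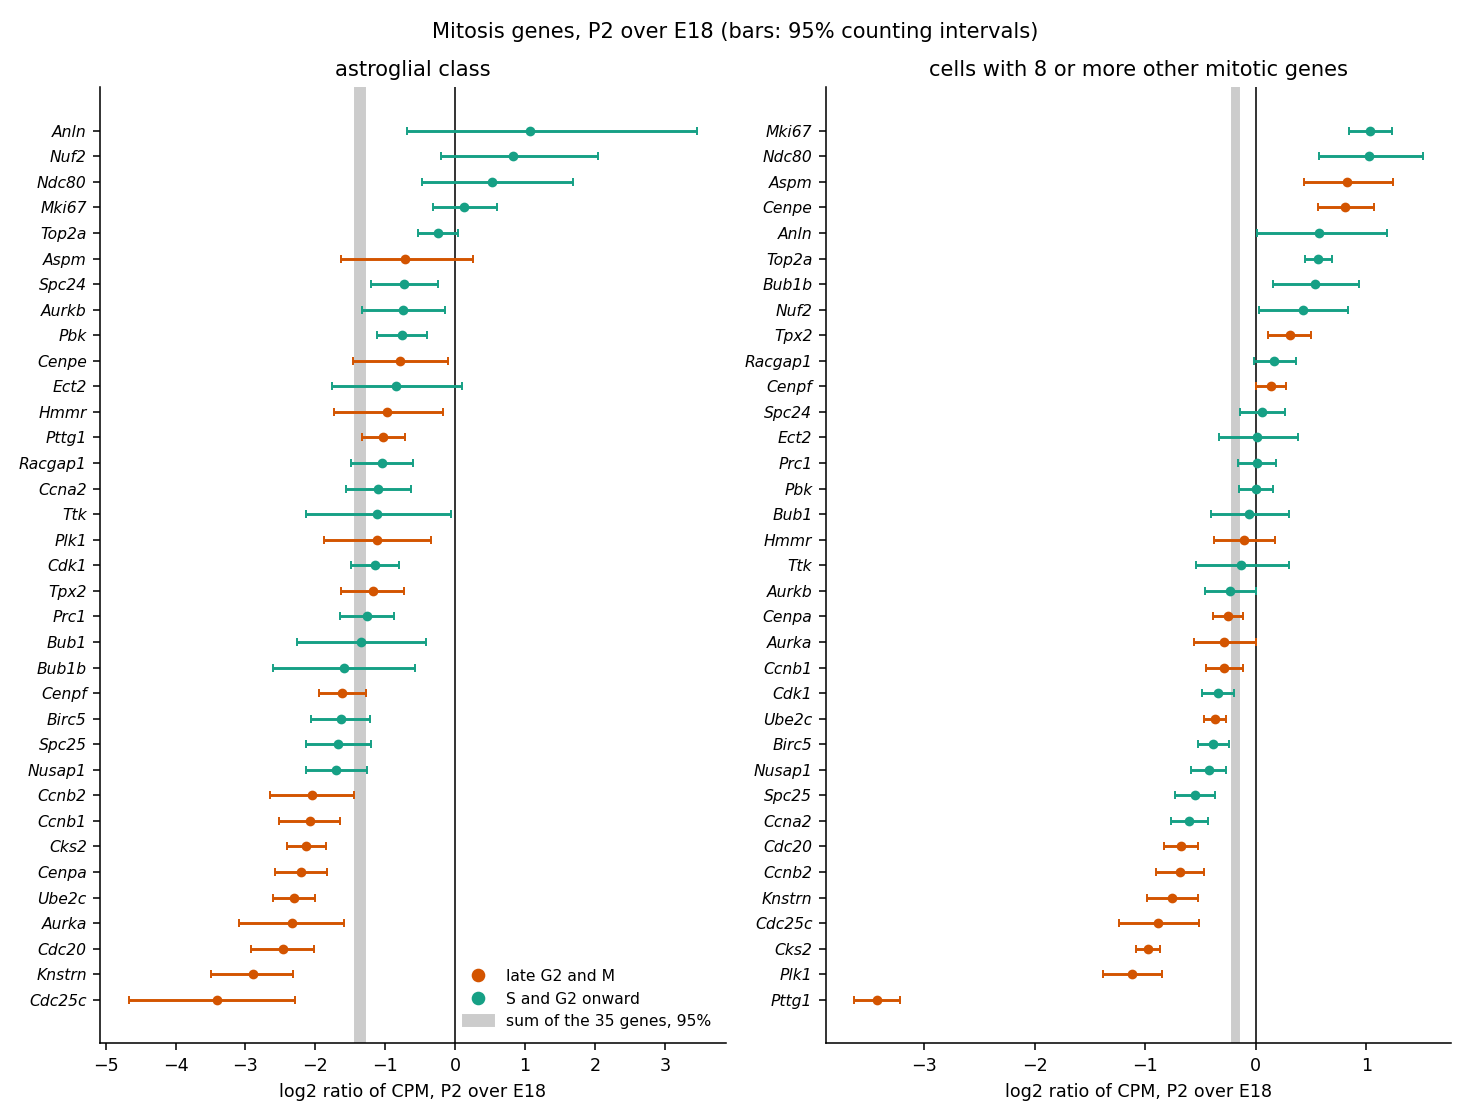
Log2 ratio of CPM, P2 over E18, for each mitosis gene in the astroglial class (left) and in cells with 8 or more other mitotic genes (right), with 95% counting intervals; late members are orange, early ones green, and the grey band is the sum of all 35. In the astroglial class the late genes lie lowest, and in dividing cells Pttg1 lies alone at -3.43.

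Dividing cells often carried neuronal transcripts at P2. Dcx, a microtubule-binding protein of migrating neurons, was seen in 211 of the 391 mitotic cells of P2 (54.0%, 48.9 to 59.0%) and in 12 of the 89 of E18 (13.5%, 7.17 to 22.4%). In microglia, which should lack it, Dcx was seen in 2 of 37 cells at P2 (5.41%) and in 0 of 8 at E18, and in the astroglial class in 8 of 115 cells at P2 and 1 of 108 at E18. The median depth before thinning was 27360 UMIs for P2 mitotic cells and 21988 for P2 microglia. With 3 or more Dcx UMIs there were 67 mitotic cells at P2 (17.1%), against 0 of 37 microglia and 0 of 115 astroglial cells, and 1 at E18. Dlx5, a homeobox gene of the inhibitory lineage, was seen in 133 of the 391 mitotic P2 cells (34.0%) and in 6 of the 89 E18 cells (6.74%), against 4 of 195 excitatory neurons at P2 and 5 of 1766 at E18. Both genes together were seen in 103 of the 391 mitotic P2 cells. These shares move with depth: Dcx was seen in 84.4% of mitotic cells at P2 and 30.4% at E18 without thinning, and in 38.6% at P2 with cells thinned to 1500 UMIs, and Dlx5 at P2 in 64.2% without thinning and 22.9% at 1500 UMIs.

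Most of these cells belonged to the inhibitory lineage. Of the 67 mitotic P2 cells with 3 or more Dcx UMIs, 45 were neuroblasts, 13 inhibitory intermediate progenitors, 6 CGE interneurons, 2 excitatory intermediate progenitors and 1 an MGE interneuron. Among neuroblasts, 100 of 121 mitotic cells (82.6%) and 743 of 794 other cells (93.6%) showed Dcx, and 78 (64.5%) and 390 (49.1%) showed Dlx5. Among inhibitory intermediate progenitors, Dcx was in 88 of 218 mitotic cells (40.4%) and 41 of 129 others (31.8%). Mitotic astroglial cells showed no Dcx or Dlx5 UMI, in 10 cells at P2 and 26 at E18, where 0 of 26 allows, by the limit of 3 cells, a share of up to 11.5%. At E18 the mitotic cells with Dlx5 were 4 neuroblasts and 2 cells of the mixed class.

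Mitotic cells with Dcx had doublet scores no higher than mitotic cells without it. The median score was 0.0465 in the 67 mitotic cells with 3 or more Dcx UMIs and 0.0519 in the 180 mitotic cells with none, after the cells with the highest scores had been removed. It was 0.0339 in the 823 other cells with 3 or more Dcx UMIs, which were shallower, with a median depth of 10092 UMIs, against 23393 in the 67 mitotic ones. Of the 67, none showed 3 or more of 9 excitatory neuron markers, 10 microglia markers or 10 astrocyte markers, 1 showed 3 or more oligodendrocyte precursor markers, and 59 showed 3 or more of 8 inhibitory neuroblast markers. Without removal by doublet score, Dcx was seen in 56.9% of mitotic cells at P2 and 16.3% at E18. A pair of an inhibitory progenitor and a neuroblast would carry no foreign marker, and its part was not tested.

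Cells with more Dcx were less often mitotic, while Dlx5 showed no such order. The inhibitory classes pooled here are the inhibitory intermediate progenitors, neuroblasts, and CGE and MGE interneurons, so the mix of classes also differs between bins. In the P2 inhibitory classes, 152 of 303 cells with no Dcx UMI were mitotic (50.2%), against 137 of 522 with 1 to 2 (26.2%), 63 of 567 with 3 to 5 (11.1%) and 2 of 144 with 6 or more (1.39%). Their summed member level was 62.7, 45.3, 27.0 and 4.82 per 10000 UMIs in the same bins. Within the neuroblasts alone the shares were 29.2%, 16.7%, 10.2% and 2.17%, so the order held inside that class. Within the inhibitory intermediate progenitors the first 2 bins had 59.6% and 68.2%, and did not follow it. For Dlx5, the mitotic share was 25.8% with none, 19.5% with 1 to 2 and 20.0% with 3 to 5 UMIs, and within neuroblasts it was 9.62%, 16% and 20.9%. At E18 only 7 of 256 cells of these classes were mitotic, too few to order, and all 7 were among the 30 neuroblasts.

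**Figure D5:**
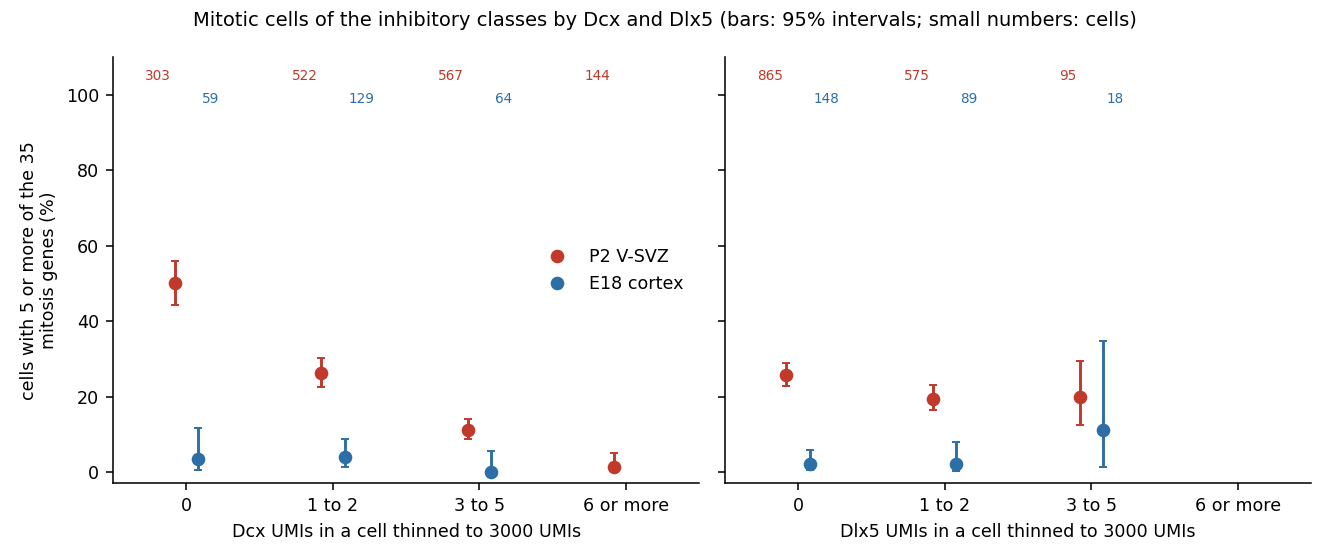
Percentage of cells with 5 or more mitosis genes among thinned cells of the inhibitory classes, by UMIs of Dcx (left) and Dlx5 (right), for P2 (red) and E18 (blue), with 95% intervals and the number of cells above each point; bins under 10 cells are not drawn. At P2 the share is 50.2% without Dcx and 1.39% with 6 or more Dcx UMIs, while along Dlx5 it stays between 19.5% and 25.8%.

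Mitotic P2 cells with Dcx had more of several late members. Here the 67 mitotic cells with 3 or more Dcx UMIs are set against the 180 without Dcx. The summed level of all members was 109.5 per 10000 UMIs in the 67 and 88.8 in the 180. Late members had 56.2 and 38.9, and early members 53.3 and 49.9. The groups also differed in class: 45 of the 67 were neuroblasts, and the 180 included all 10 mitotic astroglial cells. Of the 180, 7 showed 3 or more microglia markers, against none of the 67. The part of this mix in the ratios was not tested. Ube2c had 1246 CPM in the 67 with Dcx and 654.2 in the 180 without it, a log2 ratio of 0.93 (0.85 to 1.01). In the same cells with and without Dcx, Cenpf had 874.1 and 521.5 CPM (0.75), Hmmr, a spindle assembly factor, 178.0 and 106.7 CPM (0.74), and Cdc20 398.0 and 253.8 CPM (0.65). Top2a, at 1003 and 995.6 CPM (0.01, -0.07 to 0.09), and Cdk1, at 441.6 and 423.1 CPM (0.06), differed little between cells with and without Dcx. Pttg1 was lowest, at 19.3 CPM with Dcx and 66.1 without (-1.78, -2.33 to -1.27), and Spc24 (-0.30), Ccnb2 (-0.28) and Pbk (-0.23) also had intervals below 0. Mitotic cells were picked by the members, so these ratios describe the make-up of the picked cells and not how many divide.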

How the data were processed

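The deposited matrices hold counts of UMIs per gene and cell barcode, made by the authors with Cell Ranger 4.0.0 per the file headers, and version 4 with build mm10 per the submitters' processing notes. Aligner and cell calling settings: not given in the sources used here. Cells with under 500 genes or over 10% mitochondrial UMIs, and those with the highest 5% of Scrublet doublet scores, were left out (Scrublet's own threshold called 0.205% at P2 and 1.60% at E18). Cells were clustered (Python 3.11.15, scanpy 1.11.5, leidenalg 0.10.2, resolution 1) on 2000 variable genes. Cell cycle genes, and genes correlated with the summed members at 0.4 or more, were left out. Clusters were named from marker lists. UMIs were summed per class; CPM is counts per 1e6 UMIs of the class. Intervals are exact at the 95% level (Poisson, conditional binomial for ratios, Clopper-Pearson for shares); the limit given for a count of 0 is 3 counts of the total. A member was called at a 2-fold difference with 10 or more UMIs over both groups. TMM scaling used edgeR 4.0.16 in R 4.3.3. With 1 library per age there were no replicates and no test.

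The members and lists were chosen with earlier results of these data known. Members named with values are the one with the most UMIs in each role group, the 3 highest and 3 lowest ratios between ages, and those whose interval lies outside that of the sum. This was not applied gene by gene to the oligodendrocyte precursors, whose class was not stable, nor to the interneurons, where many E18 members had no UMI. Choosing dividing cells by 3 other mitotic genes, as first planned, was replaced by 8. The ratio calculation was tested on simulated data.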

Additional observations from a re-analysis of the deposited data

Results flagged for a closer look

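The direction of the P2 over E18 difference in the summed level of the mitosis genes was not the same in all cells compared, and this difference between classes was not tested. The log2 ratio was 4.04 in the CGE interneurons and 2.59 in the MGE interneurons, against -1.36 in the astroglial class, -2.89 in the oligodendrocyte precursor class and -0.18 in cells with 8 or more other mitotic genes. The interneuron values rest on E18 levels near those of neurons, and in the CGE class 14 mitotic P2 cells held 83.7% of the member UMIs. The P2 CGE cluster also scored higher for neuroblast markers (0.70) than for CGE markers (0.63). With cell cycle genes left in the clustering the ratios of the 4 classes were all above 0, at 1.82 in the CGE interneurons, 1.98 in the MGE interneurons, 1.58 in the astroglial class and 0.21 in the oligodendrocyte precursors, which also had 0.72 at resolution 2, so the opposite directions did not hold there.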

How the results depend on the processing

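No paired analysis was possible because there was 1 library per age, so no library was left out. Of 207 recomputed values of the summed levels, shares, ratios and counts, 110 stayed within the counting interval, or for counts within 1.5 times, and 97 did not. Of the ratios of summed levels, those of astroglial cells and oligodendrocyte precursors turned direction with cell cycle genes in the clustering, and that of the precursors at resolution 2. The alternatives with Scrublet calls alone removed, without the cluster led by replication genes, by Pdgfra or marker genes, within the class by mitochondrial UMIs, and all those for cells with 8 or more other mitotic genes were chosen after seeing the data.

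The summed level of P2 inhibitory intermediate progenitors was 67.1 without removal by doublet score, 76.4 with the 5% mitochondrial limit, 71.1 at resolution 2 and 59.0 without the cluster led by replication genes. The summed level of P2 neuroblasts was 27.2 without removal by doublet score, 49.9 with the 5% mitochondrial limit, 31.2 at resolution 0.5, 34.4 at resolution 2, 45.5 with cell cycle genes in the clustering and 32.4 with Scrublet calls alone removed. The late share of P2 neuroblasts was 48.5% without removal by doublet score, 47.6% with the 5% mitochondrial limit, 49.1% at resolution 0.5, 49.1% at resolution 2 and 54.0% with cell cycle genes in the clustering. The summed level of P2 astroglial cells was 15.6 without removal by doublet score, 26.8 with the 5% mitochondrial limit, 13.8 with cell cycle genes in the clustering, 15.1 with Scrublet calls alone removed, 15.02 in its cells under that limit, 26.0 by 4 markers and 10.7 by 6 markers. The late share of P2 astroglial cells was 44.9% without removal by doublet score, 31.6% with the 5% mitochondrial limit, 38.6% in its cells under that limit, 47.2% by 4 markers and 50.3% by 6 markers. The summed level of E18 astroglial cells was 35.9 without removal by doublet score, 4.61 with cell cycle genes in the clustering, 41.9 by 4 markers and 41.6 by 6 markers. The summed level of E18 excitatory intermediate progenitors was 29.0 without removal by doublet score, 25.5 with the 5% mitochondrial limit, 1.22 with cell cycle genes in the clustering and 19.9 with Scrublet calls alone removed. The late share of E18 excitatory intermediate progenitors was 55.0% without removal by doublet score and 74.6% with cell cycle genes in the clustering. The log2 ratio between ages in astroglial cells was -1.20 without removal by doublet score, -0.38 with the 5% mitochondrial limit, 1.58 with cell cycle genes in the clustering, -1.53 with TMM, -1.18 with Scrublet calls alone removed, -1.20 in its cells under that limit, -0.69 by 4 markers and -1.96 by 6 markers. The log2 ratio between ages in oligodendrocyte precursors was -2.30 without removal by doublet score, -3.93 with the 5% mitochondrial limit, 0.72 at resolution 2, 0.21 with cell cycle genes in the clustering, -3.20 with TMM, -1.72 with Scrublet calls alone removed and -2.05 among cells with Pdgfra. The log2 ratio between ages in MGE interneurons was 3.88 without removal by doublet score, 4.03 with the 5% mitochondrial limit, 1.98 with cell cycle genes in the clustering and 3.77 with Scrublet calls alone removed. The mitotic share of P2 inhibitory intermediate progenitors was 68.8% with the 5% mitochondrial limit, 68.5% at resolution 0.5, 69.7% with cell cycle genes in the clustering, 72.0% with 3 members, 53.6% with 8 members, 49.6% at 1500 UMIs and 83.1% unthinned. The mitotic share of P2 neuroblasts was 27.7% with the 5% mitochondrial limit, 17.3% at resolution 2, 15.7% with cell cycle genes in the clustering, 19.9% with 3 members, 10.49% with 8 members, 9.86% at 1500 UMIs and 26.8% unthinned. The mitotic share of P2 astroglial cells was 29.4% with the 5% mitochondrial limit, 18.3% with 3 members, 41.9% unthinned and 19.3% by 4 markers. The count of members 2-fold lower in P2 astroglial cells was 10 with the 5% mitochondrial limit, 2 with cell cycle genes in the clustering and 9 by 4 markers. The log2 ratio between ages in CGE interneurons was 2.99 with the 5% mitochondrial limit, 3.503 at resolution 2, 1.82 with cell cycle genes in the clustering and 3.20 with Scrublet calls alone removed. The late share of P2 inhibitory intermediate progenitors was 43.4% at resolution 0.5 and 35.4% with cell cycle genes in the clustering. The count of members 2-fold lower in P2 oligodendrocyte precursors was 0 at resolution 2 and 4 with cell cycle genes in the clustering. The late share of E18 astroglial cells was 69.5% with cell cycle genes in the clustering. The mitotic share of E18 astroglial cells was 7.06% with cell cycle genes in the clustering. The mitotic share of E18 excitatory intermediate progenitors was 0% with cell cycle genes in the clustering. The share of P2 mitotic cells with Dcx was 59.1% with 3 members, 38.6% at 1500 UMIs and 84.4% unthinned. The share of P2 mitotic cells with Dlx5 was 22.9% at 1500 UMIs and 64.2% unthinned. The share of E18 mitotic cells with Dcx was 30.4% unthinned. The log2 ratio in cells with 8 or more other mitotic genes was -0.23 without removal by doublet score, -0.13 with the 5% mitochondrial limit and -0.063 with 5 or more such genes.

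Of 187 recomputed astroglial ratios of single members, 12 turned direction. With the 5% mitochondrial limit the log2 ratios were Pbk 0.31 and Spc24 0.46. With cell cycle genes in the clustering they were Ccnb1 1.44, Cks2 0.76, Cdc20 1.14, Ube2c 1.79, Aurka 0.99, Pbk 1.81, Cenpf 1.62, Spc24 2.21, Prc1 1.96, Racgap1 1.03. The cause of these moves was not tested. A ratio with no UMI in a group was not recomputed. The median depth per cell was 12525 UMIs at P2 and 6566 at E18, so low members are least precise at E18.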
